A study of Mus musculus with 13 samples.

Results

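The genes of the proteasome were followed across 13 arrays of mouse round spermatids with different doses of the sex-linked genes Sly and Slx/Slxl1. Members were the genes that the array annotation names with a symbol starting Psma, Psmb, Psmc, Psmd, Psme, Psmf or Psmg, which gave 49 genes on 86 of the 45281 probes. A probe was kept when its detection p was under 0.05 on at least 3 of the 13 arrays, so that 68 probes of 41 members remained among 14660 genes or unnamed probes tested. Of the 41 members, 39 are subunits, activators or assembly factors, and the other two, Psmc3ip and Psme3ip1, are named for a proteasome gene without being subunits.

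The arrays compared 3 shSLX1shSLY, 3 shSLX1, 3 shSLY and 4 WT preparations of round spermatids, the haploid cells that follow meiosis. The question was how lowering the Y-encoded Sly, the X-encoded Slx/Slxl1, or both, changes gene expression in these cells. All males were of the MF1YRIII background and about 8 weeks old. The shSLX1shSLY males (Slx/y-deficient) carried the shSLY and shSLX1 transgenes, the shSLX1 males (Slx/Slxl1-deficient) and shSLY males (Sly-deficient) carried 1 short hairpin transgene each, and the WT males were their siblings without a transgene. Each array held RNA from cells separated by elutriation or by sedimentation at unit gravity, so that a group stands for cell fractions enriched in round spermatids and not for pure cells. The study's methods state that each preparation came from the pooled testes of several males. Nothing in the labels says which animals went into which preparation, and p-values measure the spread between these preparations.

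The proteasome is the protease that degrades proteins tagged with ubiquitin. Its core particle is a stack of rings, in which outer rings of alpha subunits (Psma genes) control entry and inner rings of beta subunits (Psmb genes) hold the catalytic sites. A regulatory particle caps the core, with a base of ATPases (Psmc genes) and scaffold subunits that unfold the substrate and a lid (Psmd genes) that removes its ubiquitin. Other caps, encoded by Psme genes, open the core without ubiquitin. In the testis, Psma8 encodes an alpha subunit that takes the place of its paralog Psma7 in core particles of meiotic and postmeiotic germ cells, and the activator encoded by Psme4 caps such particles, which serve histone removal and meiosis in the mouse.

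Values below are log2 intensities after background correction and quantile normalization, compared only between arrays of the same probe. Between 16110 and 19057 probes were detected per array, and 61 to 68 of the 86 proteasome probes, kept or not. Of 12 round spermatid genes listed as a check of the cell type, 10 were tested and all 10 were detected on the 13 arrays, with 0 of them called in any comparison, whereas of the 5 Sertoli and 3 Leydig cell markers tested 1 each was detected on all 13. Of 2 myoid markers tested, Myh11 was called higher in shSLX1 against WT (1.24, adjusted p = 2.4e-04, 1.78% of all genes called). It was called lower in shSLX1shSLY against shSLX1 (-1.41, adjusted p = 1.1e-04, 7.54% of all genes). The other myoid marker, Acta2, was not called. Of 8 spermatocyte markers tested all 8 were also detected on the 13 arrays, and 0 were called. Of 4 spermatogonium markers tested 3 were detected on all 13, and 0 were called. Detection alone therefore does not single out round spermatids among germ cells. The part of other cell types in the values was not tested. The only Sly probe read 10.30, 10.39 and 10.63 on the shSLX1shSLY arrays, 9.22, 8.65 and 10.21 on the shSLX1 arrays, 10.39, 10.08 and 10.71 on the shSLY arrays, and 10.19, 10.35, 9.86 and 9.85 on the WT arrays. No array with the shSLY transgene read below the WT range. No source used here says which of the many Sly transcripts this probe matches, and no Slx or Slxl1 probe was used. The groups are therefore those of the labels, unchecked by these values. The study itself reports reduced Slx/Slxl1 and Sly transcripts and proteins in round spermatids, measured by real-time PCR and Western blot.

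The probes detected on no array, which hold background only, split the arrays into 3 sets. The first set held shSLY 1 and 2 with WT 1 and 2, the second shSLX1 1 and 2 with WT 3 and 4, and the third all 3 shSLX1shSLY arrays with shSLX1 3 and shSLY 3. Across those background probes arrays of the third set correlated at 0.54 to 0.57 with each other and at 0.29 to 0.37 with arrays of the other sets. The split between the first and the second set was weaker, since arrays of the second set correlated at 0.44 to 0.49 with each other and at 0.46 to 0.55 with arrays of the first, which correlated at 0.62 to 0.65 among themselves. The labels name no batch, but the study's methods state that part of these preparations had been analysed earlier and the rest were added. The third set held no WT array, so for shSLX1shSLY against WT the array set and the genotype cannot be told apart without the shSLX1 3 and shSLY 3 arrays.

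The middle of the proteasome genes lay slightly below every WT array on all shSLX1shSLY and all shSLY arrays and on 1 of the 3 shSLX1 arrays. The median over the members, each relative to its WT mean, was -0.18, -0.21 and -0.15 log2 units on the 3 shSLX1shSLY arrays. On the shSLX1 arrays it stood at 0.08, 0.01 and -0.17, on the shSLY arrays at -0.06, -0.10 and -0.17, and on the WT arrays at 0.05, -0.03, 0.03 and -0.01. The lowest values of both single knockdowns were those of replicate 3, which overlapped the shSLX1shSLY range, and every array of the third set lay below every other. The median over all genes stayed between -0.03 and 0.02 on each array. In bulk RNA, fewer cells of a type and less RNA per cell cannot be told apart.

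**Figure D1:**
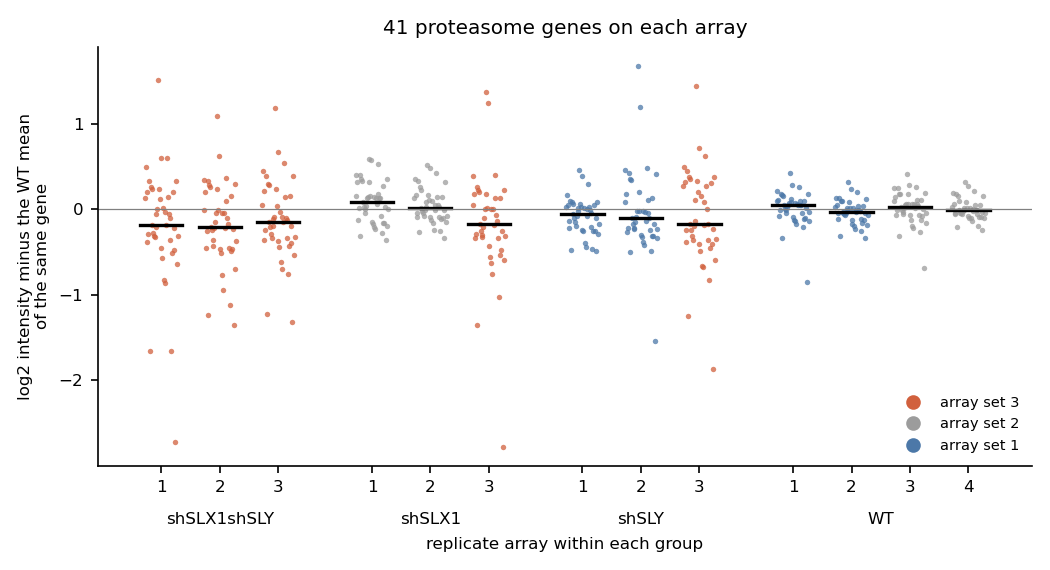
Log2 intensity of the 41 proteasome genes on each of the 13 arrays (x axis, replicates within groups) minus the mean of the same gene over the 4 WT arrays (y axis). Points are genes, coloured by array set, and black lines are medians. The 5 arrays of the third set have medians between -0.21 and -0.15, and the 8 other arrays between -0.10 and 0.08.

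Few members passed the test, which required an adjusted p (limma, Benjamini-Hochberg over all genes) under 0.05 and a change of over 1.5-fold. In shSLX1shSLY against WT, 4 of 41 members were called, where 8.89% of all genes were called, 1 of them higher (4.86% of all genes) and 3 lower (4.03%). With median scaling in place of quantile normalization 0 were called higher and 19 lower, beside 22.3% of all genes and an all-gene median of -0.35. No member was called in shSLX1 against WT (1.78% of all genes; 1 member at an unadjusted p under 0.05, as were 12.1% of all genes) or in shSLY against WT (3.08% of all genes; 6 members at an unadjusted p under 0.05, as were 15.1% of all genes). The median difference of the members was -0.21 in shSLX1shSLY, -0.02 in shSLX1 and -0.14 in shSLY against WT, beside -0.02 over all genes in each. Point values were lower than WT for 24 of 41 members in shSLX1shSLY (52% of all genes), 25 in shSLX1 (52.6%) and 27 in shSLY (52.5%). The shSLX1shSLY arrays did not overlap the WT arrays for 22 of 41 members (34.8% of all genes), 17 below (18% of all genes) and 5 above (16.8%). The 95% interval of the difference lay within 1.5-fold either way for 20 of 41 members in shSLX1shSLY, 25 in shSLX1 and 24 in shSLY, against 41.5%, 56.4% and 53.6% of all genes. For these members a change over 1.5-fold lay outside the interval, and for the others, the called members included, the interval reached past 1.5-fold.

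Few genes were called in any role group, and the group medians in shSLX1shSLY changed with the array set as a block. Core alpha genes had a median of 0.11 in shSLX1shSLY, 0.17 in shSLX1 and 0.07 in shSLY relative to WT, over 5 genes with 0 called, and -0.16 in shSLX1shSLY with the block. Core beta genes (7 tested, 0 called) had medians of -0.22 in shSLX1shSLY, -0.05 in shSLX1 and -0.09 in shSLY, and 6 of the 7 had a lower point value in each group. With the block the shSLX1shSLY value was 0.011. The base ATPases (5 tested, 0 called) stood at -0.23 in shSLX1shSLY, -0.20 in shSLX1 and -0.20 in shSLY, and at 0.034 in shSLX1shSLY with the block. The other base subunits (3 tested, Psmd2 called) had medians of -0.34 in shSLX1shSLY, -0.08 in shSLX1 and -0.16 in shSLY, and -0.11 in shSLX1shSLY with the block. The lid genes (7 tested) had medians of -0.25 in shSLX1shSLY, -0.09 in shSLX1 and -0.21 in shSLY, and the assembly factors (6 tested) of -0.43 in shSLX1shSLY, 0.03 in shSLX1 and -0.07 in shSLY. With the block these were -0.18 for the lid and -0.08 for the assembly factors in shSLX1shSLY. The immune beta genes (3 tested, 0 called), close to background, stood at 0.09 in shSLX1shSLY, -0.02 in shSLX1 and 0.37 in shSLY, and the activators (3 tested, 0 called) at 0.06, 0.003 and 0.19 for the same groups. In shSLX1 the smallest p after Psmd14 belonged to the base ATPases Psmc3 (-0.30, adjusted p = 0.46) and Psmc2 (0.27, adjusted p = 0.50) and the alpha subunit gene Psma5 (0.37, adjusted p = 0.50). In shSLY they belonged, after Psmd10 and Psmb7, to the beta subunit gene Psmb4 (-0.29, adjusted p = 0.26) and to Psmb8 (0.67, adjusted p = 0.27). The 4 calls fell in the lid (Psmd6 and Psmd11), the scaffold of the base (Psmd2) and the assembly factors (Psmd9).

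**Figure D2:**
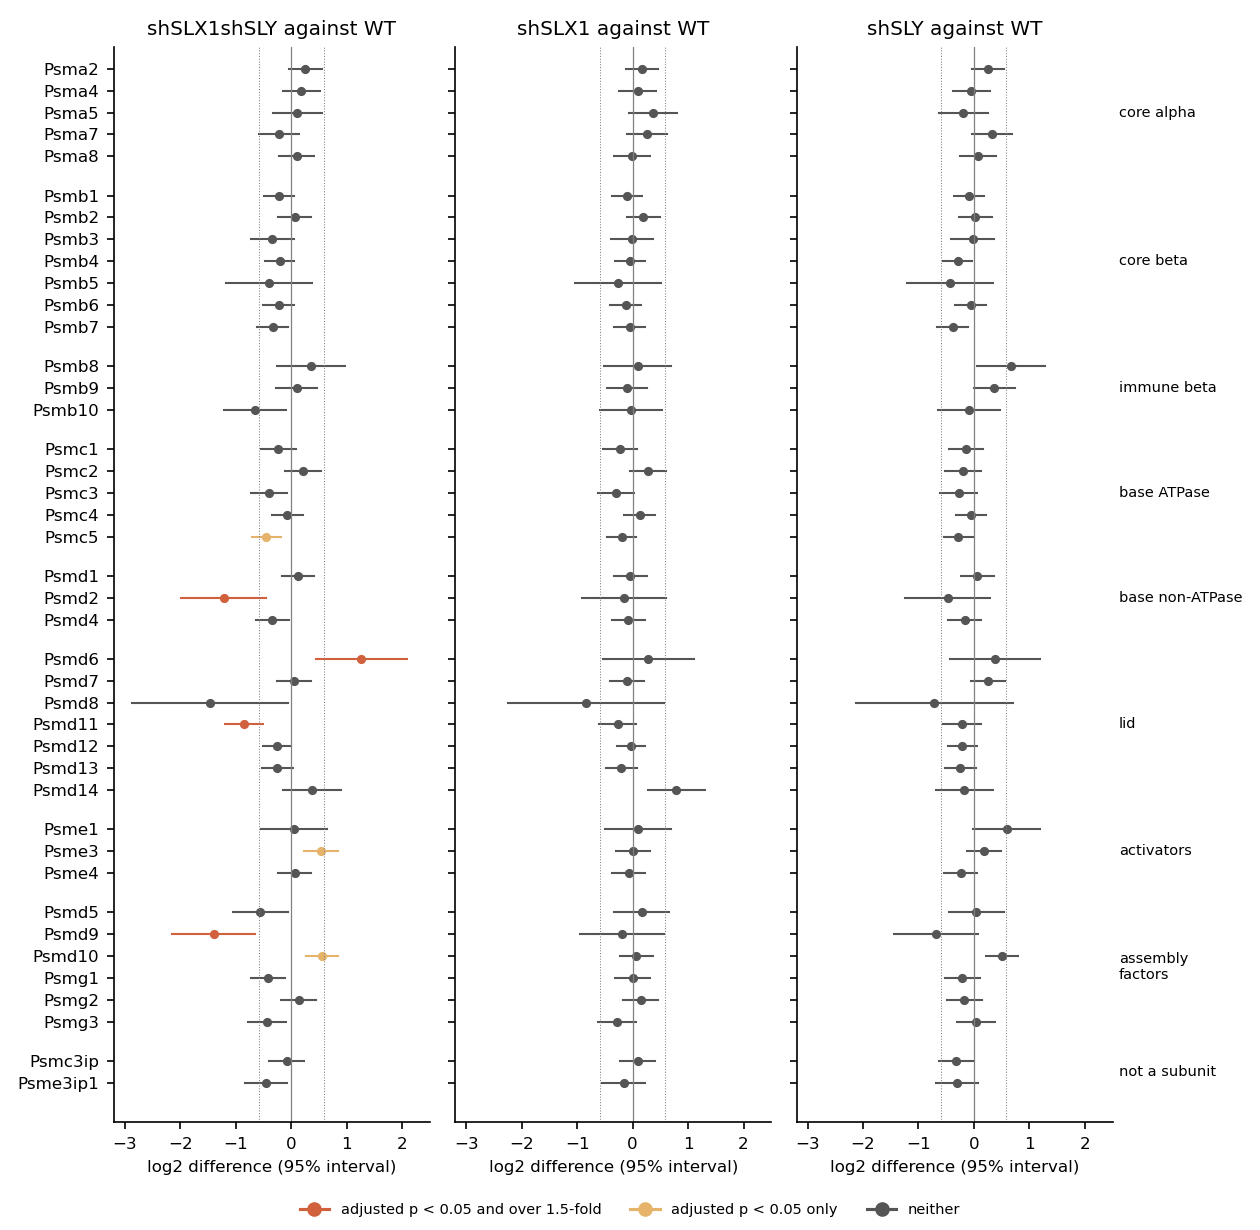
Log2 difference from WT with its 95% interval (x axis) for each of the 41 proteasome genes by role (y axis), in shSLX1shSLY, shSLX1 and shSLY spermatids. Dotted lines mark 1.5-fold; 4 genes passed both criteria in shSLX1shSLY, another 3 passed on adjusted p alone, and 0 genes passed in the single knockdowns.

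The testis subunit gene Psma8 did not pass the test in any group. Its values were 9.18, 9.19 and 9.62 on the shSLX1shSLY arrays, 9.41, 9.20 and 9.07 on the shSLX1 arrays, 9.28, 9.13 and 9.51 on the shSLY arrays, and 9.28, 9.13, 9.23 and 9.30 on the WT arrays. All groups overlapped. The differences from WT were 0.09 in shSLX1shSLY (95% interval -0.22 to 0.41), -0.01 in shSLX1 (-0.33 to 0.31) and 0.07 in shSLY (-0.25 to 0.39), so each interval stayed within 1.5-fold. A second kept Psma8 probe gave 0.38 ± 0.19 (SE), 0.04 ± 0.19 and -0.03 ± 0.19 for the same groups.

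Psma7, the paralog found in core particles of somatic cells, had 6.21, 6.78 and 6.69 on the shSLX1shSLY arrays, 7.10, 7.04 and 6.99 on the shSLX1 arrays, 6.85, 7.20 and 7.28 on the shSLY arrays, and 7.05, 6.78, 6.72 and 6.59 on the WT arrays. Both single knockdowns had higher means than WT (differences of 0.26 and 0.33, adjusted p = 0.58 and 0.38) and shSLX1shSLY a lower one (-0.22, adjusted p = 0.38). The second kept Psma7 probe gave -0.04 in shSLX1 and 0.14 in shSLY against WT, -0.35 in shSLX1shSLY, and -0.45 in the interaction described next. This second probe read 6.40, 6.52 and 6.37 on the shSLX1shSLY arrays, below the WT range of 6.69 to 6.97. On the main probe all 3 groups overlapped WT. There the shSLX1shSLY arrays lay below those of shSLX1 (-0.48, adjusted p = 0.11) and of shSLY (-0.55, adjusted p = 0.15). Psma7 had the smallest p of all members in the interaction of both knockdowns, which asks whether the double knockdown departs from the sum of the single ones (-0.81, 95% interval -1.33 to -0.29, adjusted p = 0.17). The assembly factor gene Psmd5 (-0.76, adjusted p = 0.46, detected on 1 of 3 shSLX1shSLY arrays) and the activator genes Psme4 (0.37, adjusted p = 0.59) and Psme3 (0.35, adjusted p = 0.62) followed. No member was called there, where 1.37% of all genes were and 2 members had an unadjusted p under 0.05, as did 9.93% of all genes.

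The catalytic subunits were Psmb5, Psmb6 and Psmb7, with chymotrypsin-like, caspase-like and trypsin-like sites. Psmb6 had 12.02, 11.98 and 12.04 on the shSLX1shSLY arrays, 12.26, 12.16 and 11.93 on the shSLX1 arrays, 12.23, 12.32 and 11.99 on the shSLY arrays, and 12.35, 12.28, 12.17 and 12.15 on the WT arrays. All 3 shSLX1shSLY arrays lay below WT, with a difference of -0.22 (95% interval -0.50 to 0.05, adjusted p = 0.25), and replicate 3 of both single knockdowns was as low. Psmb7 had 11.46, 11.29 and 11.24 on the shSLX1shSLY arrays, 11.80, 11.51 and 11.53 on the shSLX1 arrays, 11.19, 11.35 and 11.31 on the shSLY arrays, and 11.53, 11.63, 11.85 and 11.66 on the WT arrays. Both groups with the shSLY transgene lay wholly below WT (-0.33, adjusted p = 0.10, and -0.38, adjusted p = 0.16), and the shSLX1 group overlapped WT (-0.05). Psmb7 had 4 kept probes: in shSLX1shSLY against WT the 3 others gave -0.62, -0.54 and 0.20, and only the first of these was called when every kept probe was tested (adjusted p = 0.020).

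Psmb5 varied more between preparations than between groups. It had 8.07, 6.72 and 7.50 on the shSLX1shSLY arrays, 7.98, 7.94 and 6.81 on the shSLX1 arrays, 7.87, 7.74 and 6.59 on the shSLY arrays, and 7.73, 7.52, 8.08 and 8.02 on the WT arrays. Every group overlapped WT, with differences of -0.41, -0.26 and -0.44 and intervals of about 1.5 log2 units in width, such as -1.18 to 0.37 in shSLX1shSLY. Blocking on array sets turned the sign in shSLX1shSLY, to 0.78 ± 0.36 (adjusted p = 0.45).

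**Figure D3:**
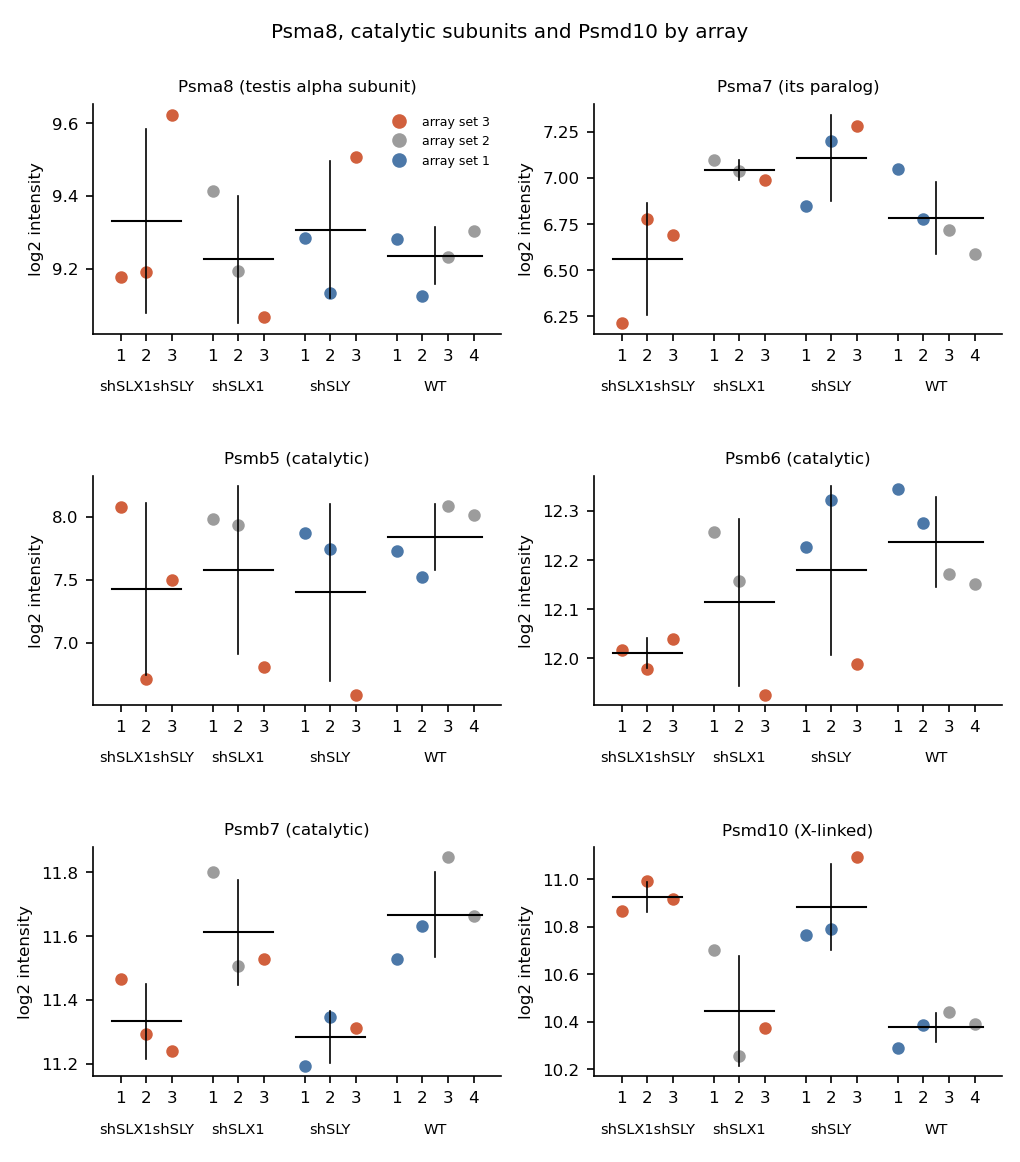
Log2 intensity (y axis) of Psma8, its paralog Psma7, the catalytic subunit genes Psmb5, Psmb6 and Psmb7, and the X-linked Psmd10 on each array (x axis). Points are arrays coloured by array set, with the group mean (horizontal line) and SD (vertical line). Psma8 lies between 9.07 and 9.62 in all groups, while Psmd10 is above every WT array on all shSLX1shSLY and shSLY arrays.

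The immune counterparts of the catalytic subunits were near background. Psmb8 was detected on 3 of 3 shSLX1shSLY, 0 of 3 shSLX1, 2 of 3 shSLY and 1 of 4 WT arrays, and its highest value was 6.46 on shSLY 2, against 4.55 to 4.88 on the WT arrays. Psmb9 was detected on 4 arrays in all, 0 of them WT. Psmb10 was detected on 0 of 3 shSLX1shSLY arrays, against 3 of 4 WT arrays (means of 4.52 and 5.17), which sets the WT level at least 1.18-fold above the shSLX1shSLY one (adjusted p = 0.11). The Psmb10 difference changed sign when blocking on array sets (-0.65 without and 0.12 with the block, adjusted p = 0.91). The bounds compare the mean of the brighter group with the detection limit of each array in the dimmer one.

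The interferon-induced activator gene Psme1 had 5.56, 5.81 and 5.42 on the shSLX1shSLY arrays, 5.70, 5.28 and 5.94 on the shSLX1 arrays, 6.01, 6.75 and 5.66 on the shSLY arrays, and 5.97, 5.86, 4.86 and 5.50 on the WT arrays. The highest value was again that of shSLY 2, and the groups overlapped (0.59 in shSLY against WT, adjusted p = 0.34). A second kept Psme1 probe was detected on 0 of 3 shSLX1shSLY and 3 of 4 WT arrays. It read 4.66, 4.52 and 4.69 on the shSLX1shSLY arrays, below the WT range of 4.92 to 5.49. This probe was not called when every kept probe was tested. Of 11 listed macrophage markers, 8 were tested and 3 were detected on all arrays. Their median relative to WT ranged from -0.24 to 0.28 on the shSLX1shSLY arrays, 0.17 to 0.22 on the shSLX1 arrays, 0.18 to 0.36 on the shSLY arrays and -0.35 to 0.57 on the WT arrays, with 0.18 on shSLY 2. The macrophage gene Lyz2 had 4.42, 6.60 and 4.91 on the shSLX1shSLY arrays, 7.42, 6.77 and 6.14 on the shSLX1 arrays, 7.54, 7.21 and 7.63 on the shSLY arrays, and 6.17, 7.35, 5.65 and 5.65 on the WT arrays. Lyz2 was not called in shSLX1shSLY against WT (-0.89, adjusted p = 0.22). Of the 8 markers, 1 was called higher and 0 lower there (8.89% of all genes called). That marker was Adgre1 (0.90, adjusted p = 0.040), which was also called higher against shSLX1 (0.998, adjusted p = 0.038, 7.54% of all genes called). Hba-a1, the only 1 of 4 listed red blood cell markers tested, had 5.86, 5.82 and 6.09 on the shSLX1shSLY arrays, 6.88, 6.07 and 6.14 on the shSLX1 arrays, 9.50, 10.20 and 7.74 on the shSLY arrays, and 7.45, 9.42, 6.21 and 5.67 on the WT arrays. Its highest value was on shSLY 2, as for Psmb8 and Psme1, and the part of these markers in the values was not tested. Psme4, the cap of testis core particles, overlapped WT in shSLX1shSLY and shSLX1 (0.06 and -0.07) and lay below it in shSLY (-0.24, adjusted p = 0.46). A second kept Psme4 probe had means of 7.65 in shSLX1shSLY, 7.94 in shSLX1, 7.76 in shSLY and 7.98 in WT. On that probe every group overlapped WT.

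The 5 promoters that follow belong to the 4 genes called in shSLX1shSLY against WT and to Psmd10, the only X-linked member kept. They are RefSeq sequences of build GRCm38.p6, from 250 bases before to 50 after the annotated start, 5′ to 3′ on the strand of the gene. Capitals mark matches on either strand to TGACNNNGC (the core of the antioxidant response element, bound by the factors that drive proteasome genes under stress), CCAAT, TGACGTCA (the cAMP response element) or CCGGAAG (an ETS site), the last of which was added after the sequences had been read.
Psmd6 (chr14:14120896-14121195, minus strand): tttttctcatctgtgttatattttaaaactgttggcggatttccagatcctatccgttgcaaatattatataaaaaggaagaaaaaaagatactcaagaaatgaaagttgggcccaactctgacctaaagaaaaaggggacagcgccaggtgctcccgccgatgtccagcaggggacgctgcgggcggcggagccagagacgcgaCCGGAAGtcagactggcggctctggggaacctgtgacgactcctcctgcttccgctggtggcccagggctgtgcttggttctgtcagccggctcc
Psmd9 (chr5:123227940-123228239, plus strand): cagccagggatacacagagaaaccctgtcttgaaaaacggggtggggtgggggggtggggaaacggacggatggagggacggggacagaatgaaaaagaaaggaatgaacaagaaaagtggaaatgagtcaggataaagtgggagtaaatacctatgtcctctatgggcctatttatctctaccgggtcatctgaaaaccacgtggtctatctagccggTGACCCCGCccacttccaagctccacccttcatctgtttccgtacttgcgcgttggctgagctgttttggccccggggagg
Psmd2 (chr16:20651402-20651701, plus strand): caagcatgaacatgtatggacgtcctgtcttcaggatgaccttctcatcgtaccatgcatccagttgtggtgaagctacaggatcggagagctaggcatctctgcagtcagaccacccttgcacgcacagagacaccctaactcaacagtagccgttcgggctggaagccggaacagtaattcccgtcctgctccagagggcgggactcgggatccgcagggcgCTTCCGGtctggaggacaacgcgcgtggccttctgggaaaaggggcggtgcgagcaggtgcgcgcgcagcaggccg
Psmd11 (chr11:80428365-80428664, plus strand): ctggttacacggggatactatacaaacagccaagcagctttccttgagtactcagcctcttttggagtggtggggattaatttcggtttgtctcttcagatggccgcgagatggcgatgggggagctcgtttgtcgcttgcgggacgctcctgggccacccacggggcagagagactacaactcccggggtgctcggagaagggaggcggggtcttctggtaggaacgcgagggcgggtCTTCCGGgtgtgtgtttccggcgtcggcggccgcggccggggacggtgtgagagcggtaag
Psmd10 (chrX:140956662-140956961, minus strand): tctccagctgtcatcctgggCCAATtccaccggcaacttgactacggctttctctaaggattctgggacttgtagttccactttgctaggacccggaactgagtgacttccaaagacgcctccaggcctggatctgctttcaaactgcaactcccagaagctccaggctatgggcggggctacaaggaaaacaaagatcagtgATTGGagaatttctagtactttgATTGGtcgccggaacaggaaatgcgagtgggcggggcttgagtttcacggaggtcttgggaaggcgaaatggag

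Of the 5 windows, those of Psmd6, Psmd2 and Psmd11 held CCGGAAG close to the start, at -45 to -39, -26 to -20 and -11 to -5. The Psmd9 window held TGACNNNGC at -31 to -23, and that of Psmd10 held CCAAT at 3 places. A promoter was found for 34 of the 41 members. CCGGAAG was present in 14 of the 34 (41.2%), against 9.93% of 27025 genes with a promoter. This motif was added after the sequences above had been read, and Psmd6, Psmd2 and Psmd11 are among the 14. Its share was thus favoured in advance. The planned TGACNNNGC was present in 5 (14.7%, against 14.0%), CCAAT in 12 (35.3%, against 41.1%) and TGACGTCA in 0, against 2.03%. Matches of different motifs did not overlap in any member (0 overlaps), and the members' windows had a median GC content of 57.8%, against 52.7% over all windows. A match is a run of letters and not a measured binding site.

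Psmd6, which encodes a lid subunit, was the only member called higher. It had 7.64, 7.22 and 7.31 on the shSLX1shSLY arrays, 5.98, 5.88 and 7.37 on the shSLX1 arrays, 6.21, 5.74 and 7.57 on the shSLY arrays, and 6.09, 5.94, 6.08 and 6.40 on the WT arrays. The 5 arrays of the third set lay at 7.22 or above and the 8 others at 6.40 or below. The shSLX1shSLY difference from WT was 1.26 ± 0.38 (SE), or 2.40-fold (adjusted p = 0.048). With the array set as a block it turned to -0.26 ± 0.21 (adjusted p = 0.74). Replicate 3 exceeded the mean of replicates 1 and 2 by 1.44 within shSLX1 and by 1.59 within shSLY. Each of these values rests on 1 array, whose own spread is not known. The second kept Psmd6 probe, detected on 6 arrays, gave 0.44 ± 0.18 in shSLX1shSLY against WT (adjusted p = 0.11).

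Psmd9, a chaperone of base assembly, had 4.85, 5.28 and 5.20 on the shSLX1shSLY arrays, 6.47, 6.74 and 5.75 on the shSLX1 arrays, 6.61, 6.25 and 4.65 on the shSLY arrays, and 6.69, 6.54, 6.35 and 6.47 on the WT arrays. The 5 arrays of the third set were the 5 lowest. It fell by 1.40 ± 0.35 in shSLX1shSLY against WT (2.65-fold lower, adjusted p = 0.027), and by 0.09 ± 0.23 with array sets as a block (adjusted p = 0.93). The probe was detected on 2 of 3 shSLX1shSLY, 3 of 3 shSLX1, 2 of 3 shSLY and 4 of 4 WT arrays. The fold therefore rests in part on values near background. Within the third set the shSLX1shSLY arrays were 0.64 below shSLX1 3 and 0.46 above shSLY 3, each a single array.

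Psmd2, a scaffold of the base to which ubiquitin shuttles dock, had 5.25, 6.14 and 5.69 on the shSLX1shSLY arrays, 7.32, 7.39 and 5.56 on the shSLX1 arrays, 6.66, 6.58 and 6.08 on the shSLY arrays, and 6.58, 6.87, 7.20 and 6.99 on the WT arrays. Again the third set held the 5 lowest values. The shSLX1shSLY difference from WT was -1.22 ± 0.36 (2.33-fold lower, adjusted p = 0.043), and -0.05 ± 0.30 with array sets as a block (adjusted p = 0.97). Its second kept probe showed the same pattern (-1.04 ± 0.29, adjusted p = 0.035 among all kept probes).

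Psmd11, a lid subunit that takes part in joining lid and base, had 7.18, 7.10 and 7.29 on the shSLX1shSLY arrays, 7.96, 7.95 and 7.41 on the shSLX1 arrays, 8.05, 7.80 and 7.63 on the shSLY arrays, and 8.10, 8.13, 7.91 and 8.02 on the WT arrays. The shSLX1shSLY arrays were below every other array, with shSLX1 3 and shSLY 3 next. This gave the smallest adjusted p of the members, -0.85 ± 0.16 against WT (1.81-fold lower, adjusted p = 0.0095), and Psmd11 was also the only member called against shSLX1 (-0.59 ± 0.17, adjusted p = 0.044, where 7.54% of all genes were called). With the array set as a block the differences were -0.43 ± 0.16 against WT (adjusted p = 0.32) and -0.32 ± 0.15 against shSLX1 (adjusted p = 0.25). The second kept probe of Psmd11 moved the other way, at 7.11, 6.98 and 7.05 on the shSLX1shSLY arrays against 5.89, 5.71, 5.77 and 5.68 on the WT arrays (1.29 ± 0.34, adjusted p = 0.031), with 6.66 on shSLX1 3 and 7.26 on shSLY 3.

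**Figure D4:**
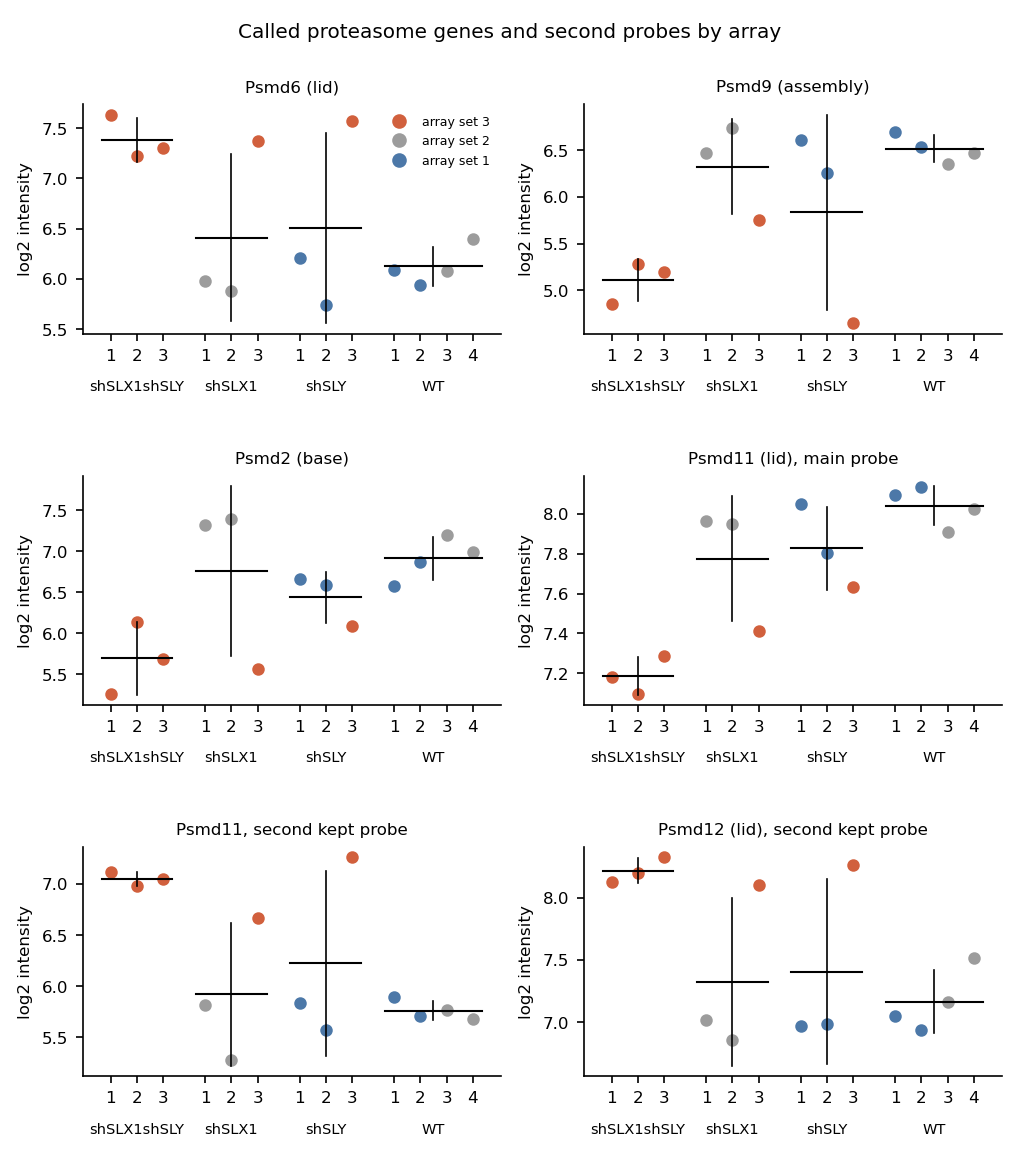
Log2 intensity (y axis) of the 4 genes called in shSLX1shSLY against WT, of the second kept Psmd11 probe and of the second kept Psmd12 probe on each array (x axis). Points are arrays coloured by array set, with the group mean (horizontal line) and SD (vertical line). In each panel the arrays shSLX1 3 and shSLY 3 lie nearer to the shSLX1shSLY arrays than replicates 1 and 2 of their own groups do.

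Leaving out 1 array at a time, Psmd11 was called against WT in 13 of 13 fits, Psmd9 in 6, Psmd2 in 5 and Psmd6 in 4. Psmd9, Psmd2 and Psmd6 lost the call without any single WT or shSLX1shSLY array. Psmd2 also lost it without shSLY 1, and Psmd6 without shSLY 1 or shSLX1 1. Over all genes 8.89% were called with all arrays. The share was 3.47% to 4.37% without 1 WT array and 1.77% to 3.84% without 1 shSLX1shSLY array. It was 7.94% without shSLY 1 and 8.89% without shSLX1 1. The call of Psmd11 against shSLX1 was kept in 3 of 13 fits. These were the fits without shSLX1 3 (18.1% of all genes called), shSLY 1 (6.87%) or shSLY 3 (10.2%).

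The third set stood apart in many members. In 13 of 41 members the 5 arrays of the third set did not overlap the 8 others, against 14.3% of all genes, with 2 members above (7.17% of all genes) and 11 below (7.11% of all genes). The 2 above were Psmd6 and Psme3, and the 11 below were Psmb1, Psmb6, Psmb10, Psmc1, Psmc3, Psmc5, Psmd2, Psmd9, Psmd11, Psmg1 and Psme3ip1.

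With the array set as a block, 0 of 41 members were called in shSLX1shSLY against WT and the median difference was -0.06. Of the 41 estimates, 30 moved closer to 0, 17 changed sign, and 2 rather than 6 exceeded 1.5-fold. In the same fit 0.3% of all genes were called (44 genes). This estimate rests on shSLX1 3 and shSLY 3 for the link between the third set and the others. Within array sets, 0 members were called in shSLY against WT (median -0.07, with 1.98% of all genes called) and 0 in shSLX1 against WT (median 0.04, with 2.37%). In the third set 1 member, Psmd14, was called in shSLX1shSLY against the single shSLX1 3 array (3.8% of all genes), where the lone array was taken to vary like those of the other groups.

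**Figure D5:**
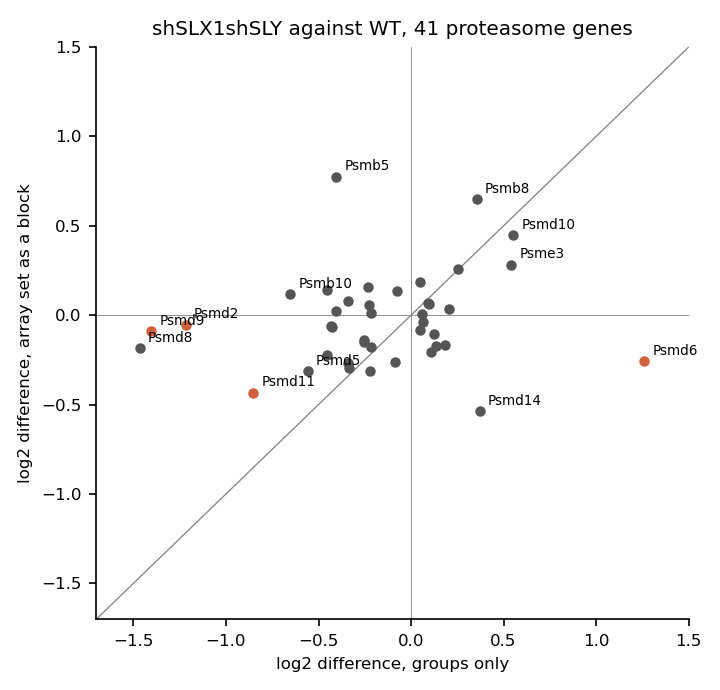
Log2 difference of shSLX1shSLY from WT for the 41 proteasome genes without (x axis) and with (y axis) the array set as a block; orange points are the 4 called genes and the diagonal marks equal estimates. Psmd6, Psmd9 and Psmd2 lie between -0.26 and -0.05 on the y axis, and Psmd11 at -0.43.

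Psmd10 encodes gankyrin, an assembly chaperone of the base that also binds cell cycle proteins, and it lies on the X chromosome. Its main probe read 10.87, 10.99 and 10.92 on the shSLX1shSLY arrays, 10.70, 10.26 and 10.38 on the shSLX1 arrays, 10.76, 10.79 and 11.09 on the shSLY arrays, and 10.29, 10.39, 10.44 and 10.39 on the WT arrays. Both groups with the shSLY transgene lay above every WT array, and in the first set, which holds WT arrays, shSLY 1 and 2 lay above WT 1 and 2. The differences from WT were 0.55 ± 0.14 in shSLX1shSLY (1.46-fold, adjusted p = 0.027), 0.07 ± 0.14 in shSLX1 (adjusted p = 0.88) and 0.51 ± 0.14 in shSLY (1.42-fold, adjusted p = 0.062), all below the 1.5-fold criterion. With the array set as a block they were 0.45 ± 0.18 (adjusted p = 0.36), -0.02 ± 0.13 (adjusted p = 0.96) and 0.53 ± 0.13 (adjusted p = 0.049), and within sets shSLY exceeded WT by 0.44 ± 0.15 (adjusted p = 0.23).

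The other two kept Psmd10 probes were higher than WT in shSLY by 0.42 ± 0.16 and 0.35 ± 0.16 (adjusted p = 0.25 and 0.34), but stood at -0.14 ± 0.16 and -0.06 ± 0.16 in shSLX1shSLY. The probes thus had 1 sign in shSLY and differed in sign in shSLX1shSLY.

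Besides Psmd10, Psme3 and Psmc5 had an adjusted p under 0.05 in shSLX1shSLY against WT without reaching 1.5-fold, which made 7 members in all with an adjusted p under 0.05 (11.1% of all genes). Psme3, whose product forms an activator of nuclear core particles, had 8.18, 7.95 and 8.25 on the shSLX1shSLY arrays, 7.30, 7.61 and 7.85 on the shSLX1 arrays, 7.67, 7.79 and 7.85 on the shSLY arrays, and 7.61, 7.59, 7.65 and 7.48 on the WT arrays. Its shSLX1shSLY arrays were above all others, by 0.54 ± 0.14 against WT (adjusted p = 0.032) and 0.54 ± 0.15 against shSLX1 (adjusted p = 0.043), and by 0.28 ± 0.17 against WT with the array set as a block (adjusted p = 0.61). Psmc5, a base ATPase, fell by 0.46 ± 0.12 against WT (adjusted p = 0.033), with a second probe at -0.49 ± 0.13, and by 0.22 ± 0.13 with array sets as a block (adjusted p = 0.60).

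Between the double and the single knockdowns few members differed. Against shSLY, 0 of 41 members were called (0.102% of all genes; 7 members at an unadjusted p under 0.05, as were 20.3% of all genes), and the median difference was -0.09. The smallest p was that of Psmd11 (-0.64 ± 0.17, adjusted p = 0.11), followed by Psma7, the assembly factor gene Psmg3 (adjusted p = 0.17, detected on 0 of 3 shSLX1shSLY and 2 of 3 shSLY arrays) and the base ATPase gene Psmc2 (0.40, adjusted p = 0.20). Against shSLX1 the median was -0.15, and the smallest p after Psme3 and Psmd11 belonged to Psmd10 (0.48, adjusted p = 0.057) and Psmd9 (-1.21, adjusted p = 0.062).

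Psmd14 encodes the lid enzyme that cuts ubiquitin chains off the substrate. It had 7.37, 7.38 and 7.48 on the shSLX1shSLY arrays, 7.61, 7.46 and 8.41 on the shSLX1 arrays, 6.55, 6.55 and 7.49 on the shSLY arrays, and 7.09, 6.86, 7.21 and 6.99 on the WT arrays. The shSLX1 arrays were all above WT (0.79, 95% interval 0.27 to 1.31, adjusted p = 0.16), with the highest value on shSLX1 3, and shSLY 1 and 2 were below WT. With the array set as a block shSLX1shSLY was below shSLX1, with a difference of -0.98 ± 0.14 (adjusted p = 0.0016), the only member called in that comparison (5.2% of all genes), against -0.42 without the block (adjusted p = 0.32). The block estimate for the third set rests on the shSLX1 3 and shSLY 3 arrays. A second kept Psmd14 probe, detected on all 13 arrays, had a higher mean in shSLX1shSLY (6.91) than in shSLX1 (6.67). It read 6.80, 6.72 and 7.21 on the shSLX1shSLY arrays and 6.69, 6.24 and 7.10 on the shSLX1 arrays. The latter overlapped the WT range of 6.08 to 6.55. This probe was not tested with the block.

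The spread within groups differed between members. The SD within groups ran from 0.09 for Psmd12 to 1.09 for the lid subunit gene Psmd8, with a median of 0.18, and was over 0.5 for 5 members (Psmd8, Psmd6, Psmb5, Psmd2 and Psmd9). Psmd8 had 6.80, 8.17 and 9.19 on the shSLX1shSLY arrays, 9.60, 9.69 and 6.74 on the shSLX1 arrays, 9.41, 7.98 and 9.03 on the shSLY arrays, and 8.67, 9.64, 9.93 and 9.84 on the WT arrays. Its difference of -1.47 in shSLX1shSLY was the largest of the 41 in that comparison, with an interval of -2.88 to -0.06 and overlapping groups (adjusted p = 0.15).

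Probes of the same gene often disagreed. Of 20 members with several kept probes, all probes had 1 sign in 10 and mixed signs in 10 in shSLX1shSLY against WT, and in 1 of them, Psmd11, probes were called in opposite directions. Psmd12 had a similar split, with -0.25 ± 0.12 for the main probe and 1.05 ± 0.32 for the second (adjusted p = 0.16 and 0.045), whose values were 8.10 on shSLX1 3 and 8.26 on shSLY 3, against 6.86 to 7.02 on their replicates 1 and 2.

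Of 30 genes that work with the proteasome (ubiquitin genes, shuttles and the factors that regulate proteasome genes), 15 were tested. In shSLX1shSLY against WT 1 was called, the ubiquitin shuttle gene Ubqln1 (-0.63 ± 0.18, adjusted p = 0.042, beside 8.89% of all genes called), and the median was 0.08. Ubqln1 stood at -0.27 ± 0.21 when blocking on array sets (adjusted p = 0.71). Nploc4, a cofactor of the segregase that feeds the proteasome, was higher in shSLX1shSLY than in shSLX1 (0.64 ± 0.18, adjusted p = 0.041, and 0.40 ± 0.20 with the block, adjusted p = 0.29). None of the 15 was called in either single knockdown against WT (0 in each, beside 1.78% of all genes in shSLX1 and 3.08% in shSLY).

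The 8 members without a kept probe were Psma1, Psma3, Psma6, Psmb11, Psmc6, Psmd3, Psme2 and Psmg4, and none of their probes reached detection on 3 arrays. No probe was named Psmf1, the gene of a proteasome inhibitor, which was not analysed here.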

How the data were processed

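The authors hybridized biotin-labelled cRNA to 1-colour Illumina mouse whole-genome BeadChips and deposited the probe intensity of 13 arrays, not normalized, each with a detection p-value. The submitters' processing notes name GenomeStudio 2011.1. A deposited table of intensity normalized by the authors (linear scale, column medians all 77.4) served as an alternative. The study's methods name BeadStudio as the software for normalization, but the sources used here do not name the normalization method.

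The neqc function of limma 3.58.1 (R 4.3.3, offset 16) corrected the background through the detection p-values, normalized by quantiles and took log2. The filter on detection retained 20250 of 45281 probes, and the probe with the highest mean stood for its gene. Gene names come from the platform annotation: 34885 probes had 1 name, 18 several and 10378 none, and 34807 named probes matched RefSeq by gene ID.

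One linear model held the 4 group means (9 residual degrees of freedom), with lmFit and eBayes, and p-values were adjusted by Benjamini-Hochberg over all 14660 genes or unnamed probes. A call needed an adjusted p under 0.05 and over 1.5-fold. Means carry standard errors of the model and 95% intervals. Precision is limited by how few arrays there are. The model was tested on simulated data first. The simulated noise was independent between arrays and held no array sets, so that test cannot speak to their effect.

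Deviations of same-numbered shSLY and WT arrays correlated at 0.11, 0.25 and 0.25, and the labels name no shared batch. The replicate number was tried as a block, although shSLY 3 lay in the third array set and WT 3 in the second. With the replicate number as a block, in which WT 4 has no partner and adds nothing, 0 members were called in shSLY against WT, as without it. To find the array sets, Ward clustering was run on 20382 probes that no array detected.

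Named genes were the called members, per comparison the 4 members with the smallest adjusted p, and, whatever their values, Psma8, Psma7, the catalytic and immune beta genes and the activators. Members, lists and the rule were chosen with earlier results of these data known. Alternatives varied the background correction, offset, scaling, filter, probe choice, blocks, weights and arrays. Promoters were searched on both strands with Python 3.11.15.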

Additional observations from a re-analysis of the deposited data

Results flagged for a closer look

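In WT, 2 of 41 members had 1 array far from the other three by Dixon's test, which by chance flags about 1 group in 20. Psmb8 read 4.55 on WT 4, against 4.85 to 4.88 on WT 1 to 3, and Psmd13 read 11.47 on WT 1, against 11.29 to 11.31 on WT 2 to 4. The gap was 0.897 and 0.876 of the WT range. In the interaction, which asks whether the double knockdown departs from the sum of the single ones, 0 members had an adjusted p under 0.05.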

How the results depend on the processing

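In shSLX1shSLY against WT 4 members were called, beside 8.89% of all genes. The count became 2 without background correction (4.14% of all genes), with a neqc offset of 50 (4.75%) and with the authors' normalized values (4.01%). It was also 2 with detection p under 0.01 on all 13 arrays (9%), and 1 with no detection filter (2.31%). Testing every kept probe gave 9 probes of 7 members (9.58% of all probes). The count was 7 with no fold change threshold (11.1%), 19 with median scaling (22.3%) and 0 when blocking on array sets (0.3%). In shSLX1shSLY against shSLX1 the count was 1, beside 7.54% of all genes. It became 0 without background correction (4.13%), with an offset of 50 (4.9%) and with the authors' values (4%). Median scaling (2.51%) and no detection filter (2.73%) also gave 0. With every kept probe it was 2 (probes of 2 members, 6.68% of all probes). The replicate block (8.1%) and no fold change threshold (8.36%) gave 2 each, and array quality weights gave 7 (16.2% of all genes). Those weights gave 7 calls in shSLX1shSLY against shSLY (17.7% of all genes) and 3 in the interaction (8.52%), where there were 0.

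Median scaling shifted the median of all genes to -0.35 in shSLX1shSLY, -0.27 in shSLX1 and -0.08 in shSLY against WT. The member medians were then -0.63, -0.39 and -0.24, or -0.28, -0.12 and -0.16 relative to all genes, and -0.25 in shSLX1shSLY against shSLX1, -0.36 in shSLX1shSLY against shSLY and 0.040 in the interaction. The offset of 50 gave -0.18 and the weights -0.18 in shSLX1shSLY against WT. No detection filter gave -0.085 there, -0.057 in shSLY against WT and -0.10 in shSLX1shSLY against shSLX1. The stricter filter gave 0.0054 in shSLX1shSLY against shSLY and 0.024 in the interaction, and the weights gave -0.041 and -0.082 for these.

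Blocking on array sets gave member medians of -0.060 in shSLX1shSLY and -0.034 in shSLY against WT, -0.042 in shSLX1shSLY against shSLX1, -0.012 in shSLX1shSLY against shSLY and 0.012 in the interaction. Within array sets they were -0.067 in shSLY against WT, -0.0086 in shSLX1shSLY against shSLX1 and -0.040 in shSLX1shSLY against shSLY. Psmd6 in shSLX1shSLY against WT reversed, to -0.26 with this block (1.26 without it). The cause of these shifts was not tested.

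With the replicate number as a block, there were 3 calls (Psmd11, Psmd6 and Psmd9) in shSLX1shSLY against WT and a median of -0.22. Same-numbered arrays correlated at -0.19 to 0.05 outside shSLY and WT, and in every comparison the labels give them only a number in common. Apart from shSLX1shSLY against shSLX1, given above, the block moved no count of called members by over 1.5 times, while over all genes the calls were 296 in shSLY against WT (452 without it) and 62 in shSLX1shSLY against shSLY (15 without it).

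Leaving out 1 array at a time, the calls in shSLX1shSLY against WT ranged over 1 to 6. They were lowest without any 1 WT array, shSLX1shSLY 1 or shSLX1shSLY 3 (1.77% to 4.37% of all genes called). The highest count came without shSLX1 3 (12.1%). In shSLX1shSLY against shSLX1 the range was 0 to 7 (highest without shSLX1 3, with 18.1% of all genes called). Against shSLY it was 0 to 6 (highest without shSLY 3, with 12.9%). In shSLX1 against WT it was 0 to 1 (Psmd14, without shSLY 3, with 2.28%). In shSLY against WT it was also 0 to 1 (Psmg2, without shSLX1 3, with 3.57%). The interaction stayed at 0. In the same order the medians ranged over -0.24 to -0.17, -0.19 to -0.10, -0.19 to -0.044, -0.06 to 0.05, -0.14 to -0.09 and, in the interaction, -0.11 to 0.038.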
